A study of Mus musculus with 16 samples.

Results

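Control organoids of the mouse jejunum were compared between the time points labelled day 2 and day 4. The comparison used 8 of the study's 16 RNA-seq libraries, 4 labelled DMSO at day 2 and 4 labelled DMSO at day 4, chosen by their labels alone. Raw read counts were joined on the gene identifier over the 19964 genes listed in the tables of both days. The cultures are purely epithelial by their label, come from C57BL/6 mice and carry Villin-CreERT2 and Hnf4a flox/flox in every group. Villin-CreERT2 is a recombinase that works only in the presence of tamoxifen and is made under the promoter of Villin, an intestinal epithelial gene, and its target here is Hnf4a, the gene of a nuclear receptor of gut and liver. The controls received the solvent DMSO, and the other 8 libraries come from organoids given 4-hydroxytamoxifen (4OHT) at 0.5 µM for 24 h. Day 4 is the only harvest that the protocol text describes, and what day 2 counts from is not stated. Day 2 is therefore used here as the time point label gives it. Whether the replicates are separate mice, lines or wells is not stated, and the p-values therefore describe the spread of these libraries, which may be technical. The libraries of a day also share a deposited table, so the day and any batch that went with it cannot be told apart.

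As background, an intestinal organoid is a closed epithelial sheet around a lumen, with buds that resemble crypts. Passaging breaks organoids into fragments, which reseal into cysts and then bud again as Paneth cells and Lgr5-positive stem cells return. Resealing epithelium is known for a passing injury state with fetal-like genes, such as Ly6a and Clu, and with activity of the Hippo pathway effector Yap. Wnt ligands from Paneth cells keep stem cells dividing at the bud base, Notch signals divide their progeny into secretory cells and absorptive enterocytes, and BMP signals favour maturation.

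The 8 libraries held 64445056 to 93322956 counts, and DMSO day 4 replicates 3 and 4 were the smallest, at 64445056 and 64801646. In a principal component analysis of the 9682 genes above a mean log2 CPM of 3, day 2 and day 4 libraries lay apart along component 1, which held 81.9% of the variance. On component 2 (7.8%), DMSO day 2 replicate 1 lay at 11.3 and the other libraries of that day between -7.6 and 1.1. That library deviated by gene length: its median log2 deviation from the mean of its day was 0.17 over 206 genes of at most 1000 exonic bases and -0.12 over 1844 genes of more than 8000. Among the day 4 libraries, replicate 2 lay at -7.8 on component 2 and the others between 0.3 and 4.5. Slc16a3, Ak4, P4ha1 and Bnip3 had the largest positive loadings on component 2, and Zfp871 the largest negative. Mitochondrially encoded genes took 2.42% to 2.74% of the counts at day 2, and 3.08%, 3.08%, 2.34% and 1.63% in day 4 replicates 1 to 4. Levels below are CPM (counts scaled to a common library size by the TMM method), given as mean ± SD over 4 libraries, day 2 first. Differences are log2 ratios of day 4 over day 2 ± SE from edgeR's quasi-likelihood test, so that a positive value is higher at day 4. A gene is called when its Benjamini-Hochberg adjusted p over all 16088 tested genes is below 0.05.

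The change from day 2 to day 4 was broad and mostly small. edgeR called 8605 genes, 53.5% of those tested: 4616 rose (28.7%) and 3989 fell (24.8%). The median change of the called genes was 0.52 for those that rose and -0.37 for those that fell, beside 0.025 for all tested genes. At least a 2-fold change was reached by 922 genes that rose and 525 that fell, and a 4-fold change by 132 and 168. The CPM values of the days did not overlap for 7491 of the called genes. Over all tested genes, 48.7% had no overlap. Every count of gene list members below is to be read against these shares, since most tested genes were called.

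**Figure D1:**
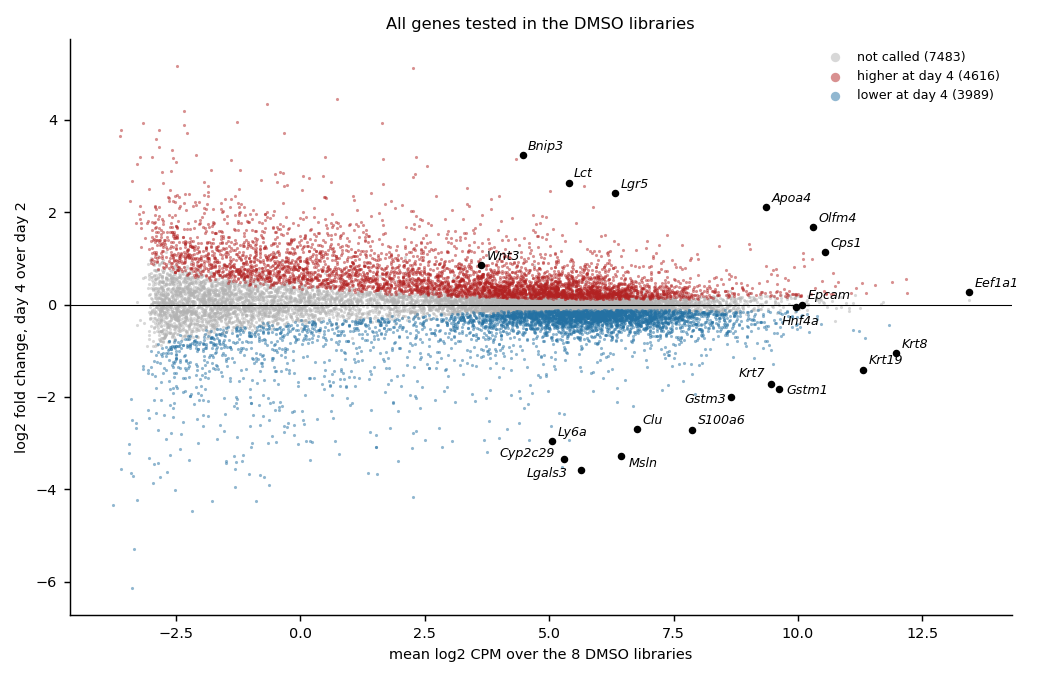
Change from day 2 to day 4 (log2 ratio, vertical axis) against mean level (log2 CPM over the 8 libraries, horizontal axis) for the 16088 genes tested in DMSO organoids. Each point is a gene, red for the 4616 that rose, blue for the 3989 that fell and grey for the rest. Named genes are in black: keratins, glutathione transferases and injury genes lie below the line, and stem cell, lactase and apolipoprotein genes above it.

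The floxed gene and the epithelial label were checked first. Hnf4a (ENSMUSG00000017950, GRCm38 chromosome 2, 163506808 to 163572910, plus strand) was at 1008, 1043, 1048 and 983 CPM at day 2 and 970.1, 993, 978 and 966 CPM at day 4. The ranges overlapped, and the difference was log2 -0.06 ± 0.05 (edgeR adjusted p = 0.312). Epcam, an epithelial adhesion molecule, was at 1089 ± 62.1 to 1089 ± 37.4 CPM (log2 0.00 ± 0.06), and Cdx2, the homeobox factor of intestinal identity, at 209 ± 14.9 to 225 ± 1.43 CPM (log2 0.11 ± 0.05). Neither was called, and Cdx2 was called higher when DMSO day 2 replicate 1 was left out (edgeR adjusted p = 0.0181). Cdx2 was also called higher with upper quartile scaling (edgeR adjusted p = 0.0481) and without a scaling factor (edgeR adjusted p = 0.0264). Of 9 genes of all intestinal epithelial cells, 7 fell and 0 rose (median -0.60). They were led by the simple keratins. Krt8 fell from 5795 ± 326 to 2797 ± 163 CPM (log2 -1.05 ± 0.07, edgeR adjusted p = 1.03e-07), Krt19 from 4165 ± 351 to 1566 ± 81.8 CPM (log2 -1.41 ± 0.07), Krt18 from 1467 ± 129 to 970.3 ± 64.8 CPM (log2 -0.60 ± 0.07), and Lgals4, a lectin of the enterocyte surface, from 3368 ± 271 to 2036 ± 50.7 CPM (log2 -0.73 ± 0.07). Krt8, Krt19 and Lgals4 were the 3 largest falls in level of the called genes. Some markers of other cells were at few reads, and others were measurable. Vim, a filament protein of stromal cells, was the 1 tested member of 5 stromal genes, at 6.58 ± 0.433 to 7.61 ± 0.604 CPM (log2 0.21 ± 0.08, edgeR adjusted p = 0.0452). Its call was lost when any library other than DMSO day 2 replicate 1 was left out (edgeR adjusted p = 0.0541 to 0.155). Col1a1 had 4 to 12 reads in a library, Des 0 to 3 and Pdgfra 3 to 16. Of 7 immune and endothelial genes, Ptprc had 0 to 7 reads and Cd3e 0 to 6. The 5 tested members summed to 26.4 to 29.8 CPM at day 2 and 24.7 to 28.9 at day 4, and 1 rose and 1 fell (2 fell without DMSO day 4 replicate 2). The immune genes Itgam and Cd68 were at 2.90 ± 0.245 to 2.77 ± 0.229 CPM and 2.91 ± 0.257 to 2.34 ± 0.529 CPM. The endothelial gene Pecam1 was at 0.469 ± 0.127 to 0.424 ± 0.0780 CPM, and none of these genes was called. Lyve1, a receptor of lymphatic endothelium, rose from 6.95 ± 0.725 to 12.02 ± 1.52 CPM (log2 0.79 ± 0.10, edgeR adjusted p = 3.19e-05), and Cd14, a co-receptor for bacterial lipopolysaccharide, fell from 14.3 ± 1.01 to 9.27 ± 0.593 CPM (log2 -0.63 ± 0.07, edgeR adjusted p = 1.23e-05). In bulk RNA, a change in the share of a cell type and a change in RNA per cell of that type cannot be told apart, and this holds for each marker gene below.

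Genes of injured and fetal-like epithelium were among those with the largest falls. All 17 tested members of a list of 19 such genes fell, against 24.8% of all genes tested, with a median of -2.55 and a range of -3.66 to -1.16. Their summed level was 3588 to 4128 CPM in the day 2 libraries and 938 to 1226 in the day 4 libraries. Ly6a (ENSMUSG00000075602, GRCm38 chromosome 15, 74994877 to 74998031, minus strand), which encodes the surface protein Sca-1 of revival-type epithelium, was at 95.1, 96.5, 81.9 and 113 CPM at day 2 and 12.3, 9.12, 7.53 and 20.9 CPM at day 4. The highest day 4 library, replicate 4, lay below the lowest of day 2, and the difference was log2 -2.96 ± 0.31 (edgeR adjusted p = 0.000121). Clu (ENSMUSG00000022037, GRCm38 chromosome 14, 65968483 to 65981547, plus strand), the gene of the secreted chaperone clusterin, was at 312, 270.4, 249 and 311 CPM at day 2 and 44.3, 33.0, 28.1 and 70.4 CPM at day 4 (log2 -2.70 ± 0.29, edgeR adjusted p = 0.000129). Replicate 4 was again the highest of day 4, and the days did not overlap. Msln, a mesothelin also made by fetal and injured epithelium, was at 274, 284, 260.3 and 306 CPM at day 2 and 24.1, 21.9, 20.8 and 49.5 CPM at day 4 (log2 -3.28 ± 0.30), with the same order at day 4. The fetal list as a whole summed highest in day 4 replicate 4, at 1226 CPM.

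Annexins and S100 proteins, calcium-dependent proteins that bind membranes or signal in injured epithelium, were part of this fall. Of the genes below, Anxa10, Krt4, Ly6d, Lgals3, Capg, Ano1, Sptssb and Syt8 are not on the fetal list. They were named for being among the 15 largest falls. S100a6 went from 603 ± 34.5 to 92.4 ± 19.1 CPM (log2 -2.71 ± 0.12, edgeR adjusted p = 2.85e-08). Anxa3 went from 119 ± 10.4 to 15.7 ± 4.93 CPM (log2 -2.93 ± 0.19), Anxa5 from 50.6 ± 1.92 to 11.4 ± 1.74 CPM (log2 -2.15 ± 0.09), Anxa2 from 828 ± 28.5 to 369 ± 36.3 CPM (log2 -1.16 ± 0.07) and Anxa10, normally an annexin of the stomach, from 133 ± 10.6 to 11.8 ± 5.08 CPM (log2 -3.51 ± 0.26). Sprr1a, a cornified envelope precursor, fell from 33.3 ± 1.65 to 5.85 ± 0.859 CPM (log2 -2.52 ± 0.09), Krt4, a keratin of stratified epithelia, from 42.5 ± 5.22 to 4.67 ± 2.20 CPM (log2 -3.19 ± 0.28), and Krt7, a keratin of ducts and of fetal gut, from 1282 ± 75.4 to 391 ± 26.3 CPM (log2 -1.71 ± 0.07, edgeR adjusted p = 1.89e-09). Ly6d, a relative of Ly6a, fell from 23.5 ± 2.65 to 3.08 ± 1.44 CPM (log2 -2.95 ± 0.25). Il1rn, the antagonist of the interleukin-1 receptor, fell from 68.1 ± 10.5 to 8.99 ± 2.53 CPM (log2 -2.92 ± 0.19). Lgals3, a galectin of motile cells, had the largest fall by the naming rule, from 175 ± 18.5 to 14.8 ± 4.48 CPM (log2 -3.57 ± 0.19, edgeR adjusted p = 4.24e-07). Capg, a capping protein of actin filaments, fell from 35.8 ± 0.967 to 4.70 ± 0.915 CPM (log2 -2.94 ± 0.10) and Ano1, a calcium-activated chloride channel, from 82.4 ± 8.82 to 13.3 ± 3.37 CPM (log2 -2.64 ± 0.16). Sptssb, a subunit of the enzyme that starts sphingolipid synthesis, was at 43.9 ± 2.28 to 5.97 ± 1.81 CPM (log2 -2.88 ± 0.16), and Syt8, a synaptotagmin, at 45.6 ± 4.63 to 7.10 ± 1.19 CPM (log2 -2.68 ± 0.11). In each of these genes all 4 libraries of day 4 lay below all 4 of day 2. For those among the 15 largest falls, this was a condition of being named.

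**Figure D2:**
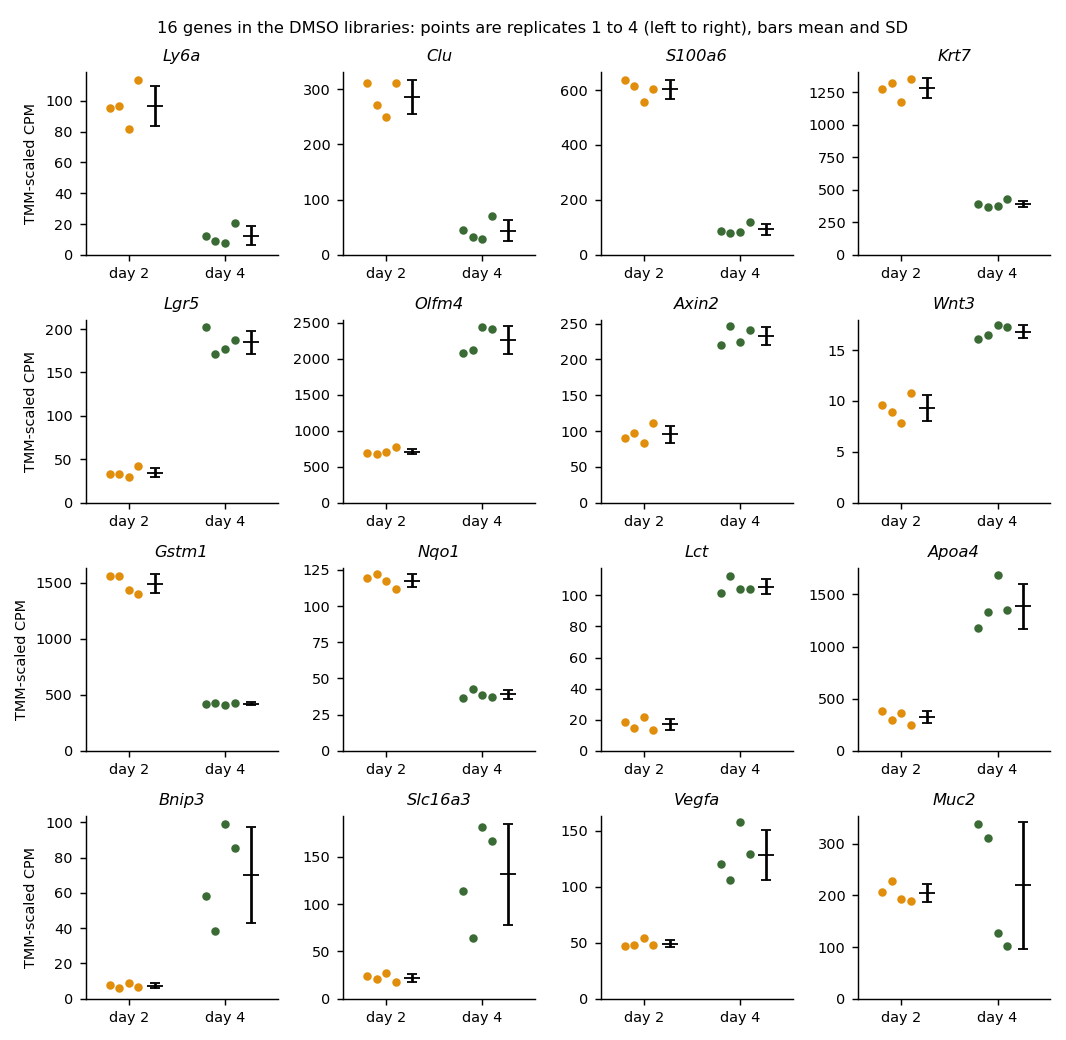
TMM-scaled CPM (vertical axes, from 0) of 16 genes in the DMSO libraries of day 2 (orange) and day 4 (green). Points are replicates 1 to 4 from left to right and black bars the mean and SD of each day. The days do not overlap except in Muc2, and the day 4 libraries are spread in Bnip3, Slc16a3 and Muc2.

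Genes linked to Yap, growth factors and contact with the matrix were lower at day 4 in their called members, with exceptions. Of 11 tested Yap and Tead targets, 6 fell and 0 rose (median -0.39). Amotl1, a junctional regulator of Yap, fell from 8.53 ± 1.65 to 1.02 ± 0.451 CPM (log2 -3.08 ± 0.24, edgeR adjusted p = 1.47e-06), Ctgf, a matricellular protein and standard Yap readout, from 13.2 ± 3.10 to 1.94 ± 0.953 CPM (log2 -2.78 ± 0.30), and Ajuba, an adaptor that inhibits the Hippo kinases, from 40.3 ± 6.69 to 11.02 ± 1.29 CPM (log2 -1.87 ± 0.12). Cyr61, another standard readout, was at 7.003 ± 0.814 to 7.11 ± 0.960 CPM (log2 0.02 ± 0.11, edgeR adjusted p = 0.885), so the targets did not move as 1 group. Without DMSO day 4 replicate 3, 1 target rose. The 6 falls include Axl, whose call was lost without DMSO day 2 replicate 1 or day 4 replicate 2 (edgeR adjusted p = 0.0531 and edgeR adjusted p = 0.0580). Of 14 genes of the EGF family and its feedback, 7 fell and 1 rose. Areg, the ligand amphiregulin, fell from 49.9 ± 10.98 to 13.2 ± 3.02 CPM (log2 -1.92 ± 0.19), Hbegf, a second ligand, from 19.4 ± 2.26 to 11.1 ± 0.608 CPM (log2 -0.82 ± 0.08), and Spry4, an ERK feedback inhibitor, from 4.94 ± 0.365 to 2.84 ± 0.247 CPM (log2 -0.80 ± 0.10). The receptors Egfr, Erbb2 and Erbb3 differed by -0.07, -0.09 and -0.10 and were not called. Erbb2 and Erbb3 were called lower without DMSO day 4 replicate 1 (edgeR adjusted p = 0.0488 for Erbb2 and edgeR adjusted p = 0.0356 for Erbb3). Etv4, an ERK-induced factor, was the 1 that rose (log2 0.37 ± 0.05). The count that rose was 2 without DMSO day 2 replicate 2, day 4 replicate 3 or day 4 replicate 4.

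Of 13 matrix adhesion genes, 8 fell and 1 rose (0 without DMSO day 2 replicate 2, day 4 replicate 1 or day 4 replicate 2). Itga3, an integrin for laminin, fell from 249.9 ± 7.21 to 149.9 ± 3.59 CPM (log2 -0.74 ± 0.05), its hemidesmosome relative Itgb4 from 259 ± 10.6 to 157 ± 16.4 CPM (log2 -0.72 ± 0.07) and Lama3, a laminin chain, from 2.81 ± 0.234 to 1.24 ± 0.302 CPM (log2 -1.19 ± 0.15). Itgb1, the common beta chain, was at 239 ± 6.49 to 234 ± 3.30 CPM (log2 -0.03 ± 0.04). Of 15 claudin and tight junction genes, 9 fell and 1 rose, among them Tjp1, a scaffold of the junction, from 193 ± 23.9 to 129 ± 8.41 CPM (log2 -0.58 ± 0.08) and Cldn23 from 20.5 ± 1.003 to 13.1 ± 0.984 CPM (log2 -0.65 ± 0.07). Cldn2 and Cldn15, the pore-forming claudins of small intestine, differed by -0.08 and 0.01 and were not called. Actb, the beta-actin gene, fell from 2932 ± 51.0 to 1977 ± 82.7 CPM (log2 -0.57 ± 0.06).

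Stress-induced genes were also lower. Of 23 targets of p53, the DNA damage factor, 16 fell and 2 rose (median -0.40). Plk3, a stress kinase, fell from 17.2 ± 1.597 to 8.08 ± 0.643 CPM (log2 -1.09 ± 0.08), Plk2 from 29.3 ± 2.74 to 13.8 ± 1.07 CPM (log2 -1.08 ± 0.08), Zmat3, an RNA-binding growth suppressor, from 58.4 ± 3.29 to 28.5 ± 2.60 CPM (log2 -1.04 ± 0.07) and Ccng1, an atypical cyclin, from 243 ± 8.54 to 135 ± 19.4 CPM (log2 -0.85 ± 0.08, edgeR adjusted p = 3.28e-06). Mdm2, the ligase that degrades p53, fell from 70.2 ± 4.19 to 47.9 ± 2.02 CPM (log2 -0.55 ± 0.06), while Ddb2, a DNA repair factor, rose from 15.04 ± 0.747 to 19.7 ± 1.95 CPM (log2 0.39 ± 0.07). Of 21 immediate early and heat shock genes, 11 fell and 3 rose. Fosl1, an AP-1 subunit of wound edges, fell from 3.26 ± 0.607 to 0.419 ± 0.0946 CPM (log2 -2.98 ± 0.19, edgeR adjusted p = 6.48e-08), Fos from 22.1 ± 2.21 to 10.4 ± 0.993 CPM (log2 -1.08 ± 0.09), Egr1 from 24.2 ± 2.63 to 11.7 ± 1.93 CPM (log2 -1.05 ± 0.11) and the heat-inducible chaperone Hspa1b from 21.4 ± 1.94 to 5.64 ± 0.773 CPM (log2 -1.93 ± 0.10). Hspa1b and Hspa1a are near-identical copies, and their reads could be split between them. Jun rose, from 22.3 ± 2.20 to 46.7 ± 2.19 CPM (log2 1.07 ± 0.07). The constitutive chaperone Hspa8 was at 2149 ± 53.7 to 2036 ± 199 CPM (log2 -0.08 ± 0.07).

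Genes of crypt base stem cells rose. Of 19, 18 rose and 0 fell (94.7% against 28.7% of all genes), with a median of 0.94. Their summed level was 2625 to 2997 CPM at day 2 and 5422 to 5835 at day 4. Lgr5 (ENSMUSG00000020140, GRCm38 chromosome 10, 115450311 to 115587780, minus strand), the R-spondin receptor that marks these cells, was at 33.3, 33.7, 30.2 and 42.3 CPM at day 2 and 202, 172, 177 and 188 CPM at day 4. All day 4 libraries were at least 4 times the highest of day 2, and the difference was log2 2.41 ± 0.09 (edgeR adjusted p = 4.10e-09). Olfm4, a secreted glycoprotein of mouse crypt stem cells, was at 694, 684, 702 and 769 CPM at day 2 and 2079.8, 2119, 2439 and 2416 CPM at day 4 (log2 1.67 ± 0.07, edgeR adjusted p = 4.10e-09). It was among the 10 largest rises in level of the called genes. Ascl2, the transcription factor of stem cell identity, rose from 10.3 ± 1.90 to 27.3 ± 3.54 CPM (log2 1.41 ± 0.13), Rgmb, a BMP co-receptor, from 53.5 ± 3.62 to 132 ± 7.63 CPM (log2 1.30 ± 0.06), Slc12a2, a sodium-potassium-chloride cotransporter, from 495 ± 77.2 to 883 ± 44.6 CPM (log2 0.84 ± 0.09) and Smoc2, a matricellular protein, from 266 ± 13.7 to 399.6 ± 13.8 CPM (log2 0.59 ± 0.05). Gkn3, a gastrokine that is not on the list, was among the 15 largest rises, from 4.82 ± 0.558 to 21.8 ± 1.75 CPM (log2 2.18 ± 0.09, edgeR adjusted p = 3.30e-09).

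Transcripts induced by Wnt signalling rose with the stem cell genes, while ligands and receptors were mixed. Of 14 tested Wnt target genes, 12 rose and 1 fell (median 1.04). Axin2, the negative feedback scaffold and standard readout of the pathway, was at 90.6, 96.9, 82.9 and 111 CPM at day 2 and 220.4, 247, 225 and 241 CPM at day 4. The days did not overlap (log2 1.29 ± 0.08, edgeR adjusted p = 5.94e-08). Sp5, a Wnt-induced repressor, rose from 1.82 ± 0.289 to 7.77 ± 0.872 CPM (log2 2.09 ± 0.13), Cdca7, a Myc-responsive nuclear protein, from 95.8 ± 6.06 to 208 ± 6.12 CPM (log2 1.12 ± 0.05), Zfp703 from 127 ± 5.33 to 248 ± 7.07 CPM (log2 0.96 ± 0.05) and Sox9, a factor of crypt progenitors, from 72.5 ± 5.91 to 118 ± 13.99 CPM (log2 0.70 ± 0.08). Myc itself rose by less, from 192 ± 15.9 to 223 ± 2.42 CPM (log2 0.21 ± 0.06), and Ccnd1, often counted among Wnt targets, was the member that fell, from 357 ± 30.8 to 296 ± 18.3 CPM (log2 -0.27 ± 0.07). As written, the Wnt target and stem cell lists share no member, which does not make them independent. Of 16 tested Wnt ligands, receptors and secretion factors, 8 rose and 4 fell (median 0.24), and only 1 of the falls was called when 4 libraries had to reach 1 CPM. Wnt3 (ENSMUSG00000000125, GRCm38 chromosome 11, 103774150 to 103817957, plus strand), the main Wnt ligand of Paneth cells, was at 9.57, 8.95, 7.79 and 10.8 CPM at day 2 and 16.1, 16.5, 17.5 and 17.2 CPM at day 4 (log2 0.86 ± 0.09, edgeR adjusted p = 4.33e-06). Every day 4 library was above every day 2 library. Wnt9b rose from 1.06 ± 0.166 to 2.66 ± 0.383 CPM (log2 1.32 ± 0.15) and the receptor Fzd4 from 2.44 ± 0.504 to 5.18 ± 0.451 CPM (log2 1.08 ± 0.13). Wnt4 fell from 0.997 ± 0.0988 to 0.442 ± 0.0769 CPM (log2 -1.16 ± 0.16) and Fzd5, a receptor that Paneth cells need, from 246 ± 17.2 to 203 ± 21.0 CPM (log2 -0.28 ± 0.07). Lgr4 and Lrp5 differed by 0.13 and -0.04 and were not called, but Lgr4 was called higher with upper quartile scaling (edgeR adjusted p = 0.0468).

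Notch and secretory fate genes rose by small amounts: 11 of 14 tested members rose and 1 fell (median 0.35). Lfng, a glycosyltransferase that modifies Notch receptors, rose from 15.2 ± 0.789 to 30.8 ± 0.796 CPM (log2 1.02 ± 0.06, edgeR adjusted p = 2.13e-08). The ligands Dll4 and Dll1 of secretory cells rose from 15.5 ± 0.920 to 23.0 ± 2.18 CPM (log2 0.57 ± 0.07) and from 65.2 ± 4.23 to 81.4 ± 6.23 CPM (log2 0.32 ± 0.06). Hes1, the Notch-induced repressor of secretory fate, rose from 88.5 ± 7.77 to 115 ± 4.60 CPM (log2 0.37 ± 0.06), and so did Atoh1, the factor of secretory fate that it represses, from 21.1 ± 1.36 to 27.6 ± 1.24 CPM (log2 0.39 ± 0.06). The ligand Jag1 fell, from 34.6 ± 3.62 to 21.6 ± 3.28 CPM (log2 -0.68 ± 0.10). Among 15 BMP genes, 7 rose and 3 fell. The ligand Bmp7 rose from 29.0 ± 1.71 to 51.1 ± 5.88 CPM (log2 0.82 ± 0.08), while the readouts Id1 and Id3 fell from 17.3 ± 1.73 to 8.86 ± 0.269 CPM (log2 -0.97 ± 0.08) and from 4.72 ± 0.323 to 2.08 ± 0.195 CPM (log2 -1.18 ± 0.10), as did the inhibitory Smad7, from 8.16 ± 0.101 to 6.39 ± 0.262 CPM (log2 -0.35 ± 0.07).

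Secretory cell markers mostly rose, except those of goblet cells. Of 15 Paneth cell genes other than defensins, 8 rose and 0 fell (median 0.47). Without DMSO day 2 replicate 3, day 2 replicate 4 or day 4 replicate 4, 1 fell. Clps, a colipase, rose from 19.0 ± 2.52 to 50.6 ± 5.14 CPM (log2 1.41 ± 0.10, edgeR adjusted p = 1.97e-07), Cd24a, a surface glycoprotein, from 292 ± 16.6 to 487 ± 21.6 CPM (log2 0.74 ± 0.06), Itln1, the lectin intelectin, from 744 ± 68.0 to 1075 ± 89.8 CPM (log2 0.53 ± 0.08) and Lyz1, the Paneth lysozyme, from 392 ± 31.6 to 544 ± 66.5 CPM (log2 0.47 ± 0.09). Mmp7, the protease that activates mouse defensins, was at 181 ± 15.9 to 183 ± 19.5 CPM (log2 0.02 ± 0.08). Of 10 tested alpha-defensins, 9 rose and 0 fell (median 0.79), but these are near-identical copies that can share reads, so the values of single members are uncertain. Defa24, the most abundant, went from 514 ± 87.1 to 707 ± 61.0 CPM (log2 0.46 ± 0.11), and Defa22 from 51.9 ± 8.13 to 93.7 ± 10.8 CPM (log2 0.85 ± 0.11). The 10 summed to 568 to 846 CPM at day 2 and 893 to 1079 at day 4. Alpha-defensins are short (a median of 418 exonic bases), and DMSO day 2 replicate 1, the library with relatively more reads in short genes, had the highest sum of its day.

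Enteroendocrine transcription factors rose in 13 of 15 cases and fell in 0 (median 0.61). Neurog3, which starts the lineage, rose from 9.48 ± 0.778 to 14.4 ± 0.659 CPM (log2 0.60 ± 0.07, edgeR adjusted p = 1.62e-05), Neurod1, which acts after it, from 2.72 ± 0.153 to 4.76 ± 0.401 CPM (log2 0.81 ± 0.10), Mnx1 from 5.08 ± 0.394 to 9.38 ± 0.381 CPM (log2 0.88 ± 0.08) and Sox4, an early progenitor factor, from 150.2 ± 10.7 to 262 ± 4.998 CPM (log2 0.80 ± 0.06). Hormones and granins followed to a lesser degree: 9 of 20 rose and 0 fell (median 0.30). Chgb, a granule protein, rose from 188 ± 9.91 to 238 ± 28.6 CPM (log2 0.34 ± 0.08) and Cpe, a hormone-processing enzyme, from 8.14 ± 0.620 to 12.3 ± 1.20 CPM (log2 0.60 ± 0.08). The hormone gene Cck rose from 12.8 ± 0.581 to 15.5 ± 2.42 CPM (log2 0.28 ± 0.10, edgeR adjusted p = 0.0254), with overlap between the days. The hormone genes Gip and Gcg were at 20.1 ± 3.52 to 22.1 ± 2.98 CPM and 7.84 ± 1.18 to 8.71 ± 2.11 CPM and were not called. Of 19 tested tuft cell genes, 12 rose and 0 fell (median 0.71), at low levels. Pou2f3, the master regulator of tuft cells, rose from 1.42 ± 0.266 to 4.32 ± 0.109 CPM (log2 1.61 ± 0.12, edgeR adjusted p = 3.70e-07), Trpm5, their taste channel, from 2.82 ± 0.289 to 6.55 ± 0.784 CPM (log2 1.22 ± 0.11) and Hpgds, a prostaglandin synthase, from 0.331 ± 0.0533 to 1.22 ± 0.245 CPM (log2 1.88 ± 0.19). All 19 together summed to 21.5 to 29.1 CPM at day 2 and 36.8 to 48.3 at day 4. Without DMSO day 2 replicate 3 or day 4 replicate 1, 1 member fell.

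Goblet cell genes had no common direction: 6 of 21 rose and 7 fell (median -0.04). Clca1, a secreted protease of mucus, fell from 479 ± 16.2 to 125 ± 11.8 CPM (log2 -1.93 ± 0.07, edgeR adjusted p = 9.59e-10), and Zg16, a mucus lectin, from 362 ± 36.6 to 148 ± 12.01 CPM (log2 -1.29 ± 0.08). Foxa3, a factor of goblet cells, rose from 34.9 ± 3.23 to 50.5 ± 1.40 CPM (log2 0.53 ± 0.06). Muc2, the gel-forming mucin, was at 206, 228, 194 and 190.0 CPM at day 2 and 338, 311, 126 and 101 CPM at day 4. Day 4 replicates 1 and 2 lay above and replicates 3 and 4 below all day 2 libraries, so that the mean difference (log2 0.10 ± 0.39) describes no library. Fcgbp, a mucus protein that binds to Muc2, was at 2486, 2744, 2534 and 2329 CPM at day 2 and 2932, 2795, 1988 and 1865 CPM at day 4 and Tff3, the goblet trefoil peptide, at 841 ± 133 to 769.8 ± 58.9 CPM. Neither was called. Of 6 genes known from M cells, 1 rose and 2 fell. Ccl20, a chemokine, fell from 7.64 ± 0.451 to 1.76 ± 0.386 CPM (log2 -2.12 ± 0.13), Pglyrp1, a peptidoglycan-binding protein, fell from 227 ± 22.4 to 171 ± 14.5 CPM (log2 -0.41 ± 0.08), and Spib, the M cell factor, was at 1.37 ± 0.142 to 1.701 ± 0.358 CPM (log2 0.32 ± 0.16). Spib was called higher without DMSO day 4 replicate 4 (edgeR adjusted p = 0.0148), which made 2 that rose.

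**Figure D3:**
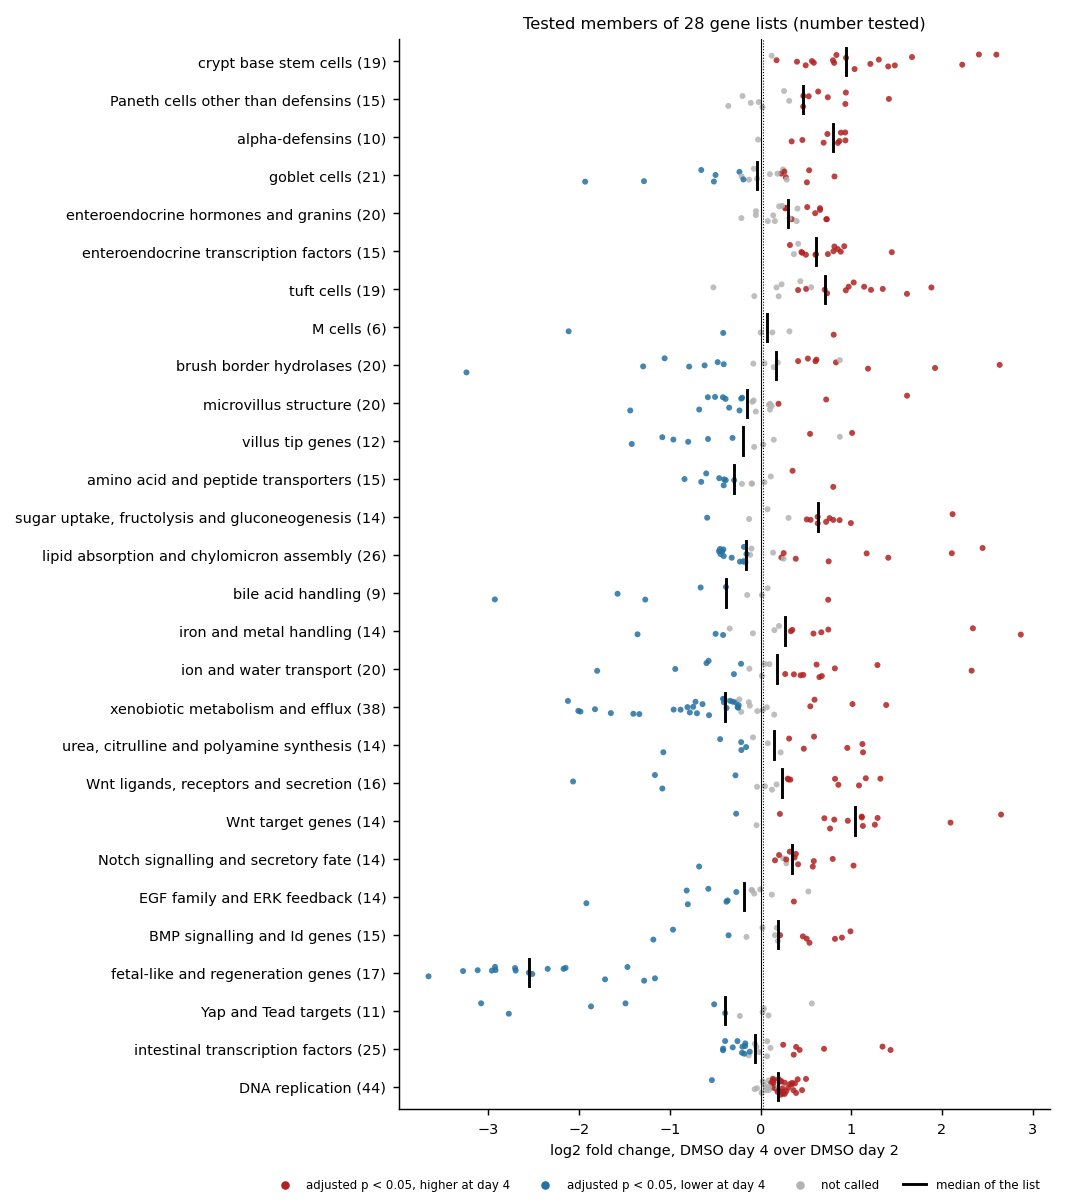
Change from day 2 to day 4 (log2 ratio, horizontal axis) of the tested members of 28 lists of cell type, absorption and signalling genes, with the number tested after each name. Points are genes, red and blue where edgeR called them higher or lower at day 4, black bars are list medians and the dotted line is the median of all tested genes (0.025). All 17 fetal-like genes lie to the left, and 18 of 19 stem cell genes are red.

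Enterocyte genes did not move as a group: some lists leaned in 1 direction, and others held rises and falls in similar numbers. Sugar handling rose: of 14 genes of sugar uptake, fructolysis and gluconeogenesis, 10 rose and 1 fell (median 0.63). Fbp1, an enzyme of gluconeogenesis, was at 38.5, 24.0, 33.6 and 18.9 CPM at day 2 and 124, 121, 132 and 120.4 CPM at day 4 (log2 2.12 ± 0.19, edgeR adjusted p = 1.58e-05), with no overlap. The glucose transporters Slc2a2 and Slc5a1 rose from 46.4 ± 8.47 to 84.8 ± 5.41 CPM (log2 0.87 ± 0.11) and from 616 ± 87.8 to 953 ± 47.3 CPM (log2 0.63 ± 0.09), and Slc37a4, the glucose-6-phosphate carrier, from 47.9 ± 4.18 to 78.9 ± 2.25 CPM (log2 0.72 ± 0.06). Slc5a4b was the member that fell (128 ± 15.5 to 85.2 ± 3.91 CPM, log2 -0.59 ± 0.08). The list summed to 7298, 5852, 6922 and 4848 CPM in day 2 replicates 1 to 4 and to 8908 to 9417 at day 4, so its spread was mostly among the libraries of day 2.

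Brush border hydrolases, the surface enzymes of the enterocyte, were divided: 8 of 20 rose and 7 fell (median 0.17). Lct (ENSMUSG00000026354, GRCm38 chromosome 1, 128284756 to 128328318, minus strand), the lactase gene, was at 18.6, 14.6, 21.5 and 13.3 CPM at day 2 and 102, 113, 104 and 104 CPM at day 4. Every day 4 library was more than 4 times the highest of day 2 (log2 2.63 ± 0.13, edgeR adjusted p = 6.20e-08). Sis, the sucrase-isomaltase gene, rose from 2605 ± 443 to 3468 ± 177 CPM (log2 0.41 ± 0.10). By contrast, the phosphatase Alpi fell from 305 ± 24.7 to 124 ± 12.7 CPM (log2 -1.29 ± 0.08), the metalloprotease Mep1b from 266 ± 17.96 to 128 ± 8.91 CPM (log2 -1.06 ± 0.06) and the aminopeptidase Anpep from 595 ± 40.3 to 428 ± 34.5 CPM (log2 -0.47 ± 0.07). Of 20 genes of microvillus structure, 10 fell and 3 rose (5 rose with upper quartile scaling or without a scaling factor). Vil1, the bundling protein villin whose promoter also drives the recombinase, fell from 932 ± 26.9 to 713 ± 21.7 CPM (log2 -0.39 ± 0.05, edgeR adjusted p = 3.89e-05), Slc9a3r1, a scaffold of the brush border, from 426 ± 11.1 to 266 ± 6.02 CPM (log2 -0.68 ± 0.05) and the protocadherin Cdhr5 from 488 ± 39.7 to 344 ± 12.6 CPM (log2 -0.50 ± 0.06). Pdzk1, a related scaffold, rose from 9.07 ± 1.31 to 27.8 ± 2.16 CPM (log2 1.61 ± 0.09). Of 12 tested villus tip genes, 6 fell and 2 rose. Apobec1, the editing enzyme of Apob mRNA, fell from 30.6 ± 0.927 to 11.4 ± 0.287 CPM (log2 -1.42 ± 0.05), Krt20 from 419.6 ± 19.6 to 215 ± 12.1 CPM (log2 -0.96 ± 0.06) and Ada, adenosine deaminase, from 9.63 ± 0.373 to 5.56 ± 0.709 CPM (log2 -0.80 ± 0.09), while Klf4, a differentiation factor, rose from 35.2 ± 1.85 to 51.3 ± 3.58 CPM (log2 0.54 ± 0.06).

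Lipid absorption genes were led by apolipoproteins. Apoa4 (ENSMUSG00000032080, GRCm38 chromosome 9, 46240696 to 46243459, plus strand), a chylomicron apolipoprotein, was at 378, 299, 360.4 and 249 CPM at day 2 and 1177, 1329, 1684 and 1353 CPM at day 4 (log2 2.11 ± 0.14, edgeR adjusted p = 5.92e-07). It was among the 10 largest rises in level of the called genes. Apoc3 rose from 14.01 ± 2.80 to 76.3 ± 10.3 CPM (log2 2.45 ± 0.14, edgeR adjusted p = 2.23e-07) and Cd36, a fatty acid carrier, from 6.93 ± 1.07 to 15.6 ± 0.638 CPM (log2 1.17 ± 0.10). The core of chylomicron assembly differed little: Apob was at 941 ± 196 to 1034 ± 125 CPM (log2 0.14 ± 0.13) and Mttp, the transfer protein that loads it, at 1040.0 ± 129 to 926 ± 41.0 CPM (log2 -0.17 ± 0.08). Neither was called, but Apob was called higher without DMSO day 2 replicate 3 (edgeR adjusted p = 0.0389) and Mttp lower without DMSO day 2 replicate 4 (edgeR adjusted p = 0.0413). Over the 26 genes of the list, 8 rose and 11 fell (median -0.16). Of 15 amino acid and peptide transporters, 8 fell and 2 rose. The neutral amino acid carrier Slc6a19 fell from 81.8 ± 11.6 to 45.7 ± 4.37 CPM (log2 -0.84 ± 0.10), the cystine carrier Slc7a9 from 60.1 ± 5.45 to 39.7 ± 0.632 CPM (log2 -0.60 ± 0.06) and the taurine carrier Slc6a6 from 465 ± 29.96 to 295 ± 18.4 CPM (log2 -0.66 ± 0.06), while the glutamate carrier Slc1a1 rose from 29.3 ± 1.505 to 51.1 ± 4.79 CPM (log2 0.80 ± 0.07). Slc15a1, the peptide transporter, was at 33.7 ± 3.23 to 31.5 ± 0.858 CPM (log2 -0.10 ± 0.07).

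Of 9 bile acid genes, 5 fell and 1 rose (0 without DMSO day 4 replicate 1). Fgf15, the hormone that ileal enterocytes release in response to bile acids, fell from 15.5 ± 1.10 to 2.04 ± 0.27 CPM (log2 -2.93 ± 0.10, edgeR adjusted p = 9.59e-10), Slc10a2, the ileal uptake carrier, from 3.64 ± 0.596 to 1.24 ± 0.286 CPM (log2 -1.58 ± 0.17), Abcc3, an export pump, from 327 ± 10.02 to 136 ± 12.1 CPM (log2 -1.27 ± 0.06) and Nr1h4, the bile acid receptor, from 40.9 ± 1.40 to 31.4 ± 1.48 CPM (log2 -0.38 ± 0.05). Fabp6, the ileal bile acid binding protein, was close to 0 at both days (0.255 ± 0.0716 to 0.274 ± 0.0753 CPM). In iron and metal handling, 7 of 14 genes rose and 3 fell. Slc30a10, a manganese exporter, rose from 7.14 ± 1.24 to 36.2 ± 4.66 CPM (log2 2.34 ± 0.12, edgeR adjusted p = 3.93e-08) and the metallothionein Mt1 from 702 ± 129.9 to 1051 ± 55.8 CPM (log2 0.58 ± 0.10). Slc39a4, the zinc importer, fell from 202 ± 4.55 to 78.8 ± 6.64 CPM (log2 -1.36 ± 0.06) and Heph, the ferroxidase of iron export, from 167 ± 10.7 to 126 ± 2.81 CPM (log2 -0.41 ± 0.05). Slc40a1, the iron exporter, went the other way, from 6.45 ± 0.394 to 10.87 ± 2.77 CPM (log2 0.75 ± 0.15, edgeR adjusted p = 0.0013). In ion and water transport, 10 of 20 rose and 6 fell. Aqp1, a water channel, rose from 131 ± 9.25 to 319 ± 23.0 CPM (log2 1.29 ± 0.07), Kcnq1, a potassium channel, from 142 ± 9.31 to 251 ± 8.66 CPM (log2 0.82 ± 0.06) and Cftr, the chloride channel of crypts, from 119.8 ± 13.2 to 166 ± 21.1 CPM (log2 0.47 ± 0.10), while Slc26a3, the chloride-bicarbonate exchanger of surface cells, fell from 168 ± 12.6 to 111 ± 11.2 CPM (log2 -0.60 ± 0.07).

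In the 14 genes of urea, citrulline and polyamine synthesis, 6 rose and 5 fell. Cps1, the mitochondrial enzyme that starts the urea cycle, rose from 1012 ± 52.3 to 2213 ± 50.4 CPM (log2 1.13 ± 0.06, edgeR adjusted p = 1.35e-08) and Oat, ornithine aminotransferase, from 743 ± 76.7 to 1617 ± 72.2 CPM (log2 1.12 ± 0.07), both among the 10 largest rises in level. Aldh18a1, which makes the precursor for both proline and ornithine, rose from 364 ± 12.2 to 506 ± 10.8 CPM (log2 0.48 ± 0.05), and Arg2, the mitochondrial arginase, fell from 113 ± 13.1 to 53.6 ± 1.38 CPM (log2 -1.07 ± 0.07). The count of members that fell was 3 without DMSO day 2 replicate 2, day 4 replicate 1 or day 4 replicate 3.

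Most genes of detoxification fell. Of 38 genes of xenobiotic metabolism and efflux, 26 fell and 4 rose (68.4% fell against 24.8% of all genes, median -0.39), and the list summed to 11601 to 12944 CPM at day 2 and 7818 to 7936 at day 4. Gstm1 (ENSMUSG00000058135, GRCm38 chromosome 3, 108012255 to 108017973, minus strand), a glutathione transferase, was at 1561, 1561, 1433 and 1400.1 CPM at day 2 and 421, 428, 404 and 427 CPM at day 4. The day 4 libraries lay close together (SD 11 CPM) and far below those of day 2 (log2 -1.83 ± 0.06, edgeR adjusted p = 7.83e-10). Gstm3 fell from 809 ± 25.2 to 201 ± 12.9 CPM (log2 -2.01 ± 0.06, edgeR adjusted p = 3.67e-10) and Gsta4 from 787 ± 51.8 to 199 ± 20.7 CPM (log2 -1.99 ± 0.08). Mu-class transferases are close paralogs that can share reads. Cyp2c29, a cytochrome P450 that is not on the list, fell from 126 ± 23.5 to 12.5 ± 0.379 CPM (log2 -3.34 ± 0.12, edgeR adjusted p = 4.10e-09), Cyp3a13 from 325 ± 10.2 to 198 ± 8.97 CPM (log2 -0.72 ± 0.05) and Aldh1a1, an aldehyde dehydrogenase, from 1037 ± 59.9 to 665 ± 36.4 CPM (log2 -0.64 ± 0.06). Ces1d, a carboxylesterase, was an exception and rose from 24.9 ± 2.14 to 64.9 ± 7.72 CPM (log2 1.38 ± 0.09).

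Targets of Nrf2, the factor that switches on genes against oxidants and electrophiles, fell in all 17 cases (median -0.87). As written, their list shares no member with that of the detoxification genes, which does not make the lists independent. Nqo1, the quinone reductase and standard Nrf2 readout, was at 119, 122, 117 and 112 CPM at day 2 and 36.4, 42.9, 38.8 and 37.5 CPM at day 4. The libraries of each day lay close together, and the days did not overlap (log2 -1.59 ± 0.06, edgeR adjusted p = 1.71e-09). Akr1b8, an aldo-keto reductase, fell from 172 ± 6.47 to 39.9 ± 4.39 CPM (log2 -2.11 ± 0.07), Osgin1 from 59.1 ± 2.15 to 28.7 ± 0.930 CPM (log2 -1.04 ± 0.05), Txn1, thioredoxin, from 1026 ± 121 to 638 ± 18.2 CPM (log2 -0.68 ± 0.08) and Prdx1, a peroxiredoxin, from 1217 ± 71.1 to 841 ± 65.8 CPM (log2 -0.53 ± 0.07). Gclm, a subunit of the enzyme that starts glutathione synthesis, fell less, from 195 ± 4.52 to 157 ± 7.74 CPM (log2 -0.31 ± 0.05, edgeR adjusted p = 0.000167). Its promoter is shown because members of the list moved together and the antioxidant response element is their known regulatory sequence. The letters searched were TGACNNNGC on both strands, a motif added after the values were seen. The bases shown are the 250 before the RefSeq start (GRCm38.p6, chr3:122245307-122245556, plus strand), 5′ to 3′, with the match in capitals:
Gclm: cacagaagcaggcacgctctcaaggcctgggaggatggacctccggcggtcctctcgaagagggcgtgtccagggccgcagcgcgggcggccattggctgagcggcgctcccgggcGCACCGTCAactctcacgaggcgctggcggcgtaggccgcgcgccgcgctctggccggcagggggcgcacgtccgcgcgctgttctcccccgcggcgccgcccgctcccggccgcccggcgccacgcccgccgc
These letters begin 134 bases before the start. Of 15 members with a window, 7 held a match (46.7%), beside 14% of all 27025 genes of the promoter table and 16.9% of the 10680 tested genes with a window. A match describes the letters and is not evidence of binding.

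Mucosal defence genes mostly fell: 9 of 15 fell and 3 rose (median -0.48). Reg3g, an antimicrobial lectin, was at 373, 289, 307 and 219 CPM at day 2 and 96.2, 80.9, 76.1 and 76.7 CPM at day 4 (log2 -1.85 ± 0.15, edgeR adjusted p = 3.36e-06) with no overlap, and its relative Reg3b fell from 90.4 ± 7.21 to 17.4 ± 3.25 CPM (log2 -2.38 ± 0.12). Dmbt1, a secreted scavenger protein that is not on the list, was at 1272, 1203, 1171 and 966 CPM at day 2 and 617, 576, 375 and 334 CPM at day 4 (log2 -1.28 ± 0.20, edgeR adjusted p = 0.000452), again with no overlap. Nos2, the inducible nitric oxide synthase, fell from 10.3 ± 0.409 to 2.96 ± 0.817 CPM (log2 -1.79 ± 0.15) and Il18, an epithelial cytokine, from 23.8 ± 0.888 to 9.89 ± 1.71 CPM (log2 -1.27 ± 0.10). Pla2g2f, a secreted phospholipase, rose from 12.3 ± 1.06 to 19.9 ± 1.68 CPM (log2 0.70 ± 0.08), and Pigr, the carrier of secretory antibodies, was at 2202 ± 187 to 2239 ± 167 CPM (log2 0.02 ± 0.08). Of 3 tested MHC class II genes, 2 fell, at mean levels of at most 1.63 CPM, and neither passed a filter of at least 1 CPM. In the 24 tested interferon response genes, 8 rose and 7 fell (median 0.02). Ifit1, an antiviral RNA-binding protein, rose from 1.246 ± 0.206 to 4.31 ± 0.683 CPM (log2 1.79 ± 0.15), while Mx1 fell from 2.58 ± 0.357 to 0.928 ± 0.259 CPM (log2 -1.50 ± 0.18). When 4 libraries had to reach 1 CPM, 4 rose.

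Genes of glycolysis and of the response to low oxygen rose: 24 of 29 rose and 0 fell (82.8% against 28.7%), with a median of 0.87. The transcription factor Hif1 is known to switch on most of them. Summed over the list, the day 2 libraries held 9175 to 10625 CPM and the day 4 libraries 13764 to 18925. Bnip3 (ENSMUSG00000078566, GRCm38 chromosome 7, 138890836 to 138909519, minus strand), a mitochondrial protein of mitophagy, was at 8.06, 6.31, 8.98 and 6.65 CPM at day 2 and 58.4, 38.3, 99.0 and 85.6 CPM at day 4. Replicate 3 was the highest and replicate 2 the lowest of day 4, and the days did not overlap (log2 3.23 ± 0.32, edgeR adjusted p = 8.40e-05). Slc16a3, the lactate exporter, was at 23.6, 20.4, 27.7 and 17.7 CPM at day 2 and 114, 64.4, 181 and 167 CPM at day 4 (log2 2.56 ± 0.34), with the same lowest and highest library. Vegfa, the angiogenic growth factor, was at 47.2, 48.4, 53.9 and 48.0 CPM at day 2 and 121, 106, 158 and 129.7 CPM at day 4 (log2 1.38 ± 0.10, edgeR adjusted p = 7.63e-07), and again replicate 2 was the lowest of day 4 and replicate 3 the highest. Ankrd37, a Hif1 target, rose from 4.31 ± 0.415 to 24.7 ± 6.33 CPM (log2 2.51 ± 0.17) and Ak4, an adenylate kinase of the mitochondrial matrix that is not on the list, from 7.13 ± 0.957 to 63.5 ± 28.2 CPM (log2 3.15 ± 0.38).

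The enzymes of glycolysis rose by less than these stress genes. Eno1, enolase, rose from 888 ± 66.1 to 1769 ± 191 CPM (log2 0.99 ± 0.08, edgeR adjusted p = 6.80e-07), Gapdh from 1317 ± 119.7 to 2116 ± 176 CPM (log2 0.68 ± 0.08), Pkm, pyruvate kinase, from 1505 ± 43.1 to 2109 ± 205 CPM (log2 0.49 ± 0.07) and Ldha, the subunit of lactate dehydrogenase that favours lactate, from 1514 ± 127 to 1984 ± 271 CPM (log2 0.39 ± 0.09, edgeR adjusted p = 0.00362). Hk2, a hexokinase, and Slc2a1, the basal glucose transporter, were at 78.4 ± 8.98 to 82.7 ± 10.6 CPM (log2 0.08 ± 0.10) and 75.3 ± 1.54 to 85.2 ± 26.9 CPM (log2 0.18 ± 0.22) and were not called. Slc2a1 was called higher without DMSO day 4 replicate 2 (edgeR adjusted p = 0.00132). The share of mitochondrially encoded counts, given above, was lowest in day 4 replicates 3 and 4, the libraries with the highest sums of this list. Their part in each other was not tested.

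**Figure D4:**
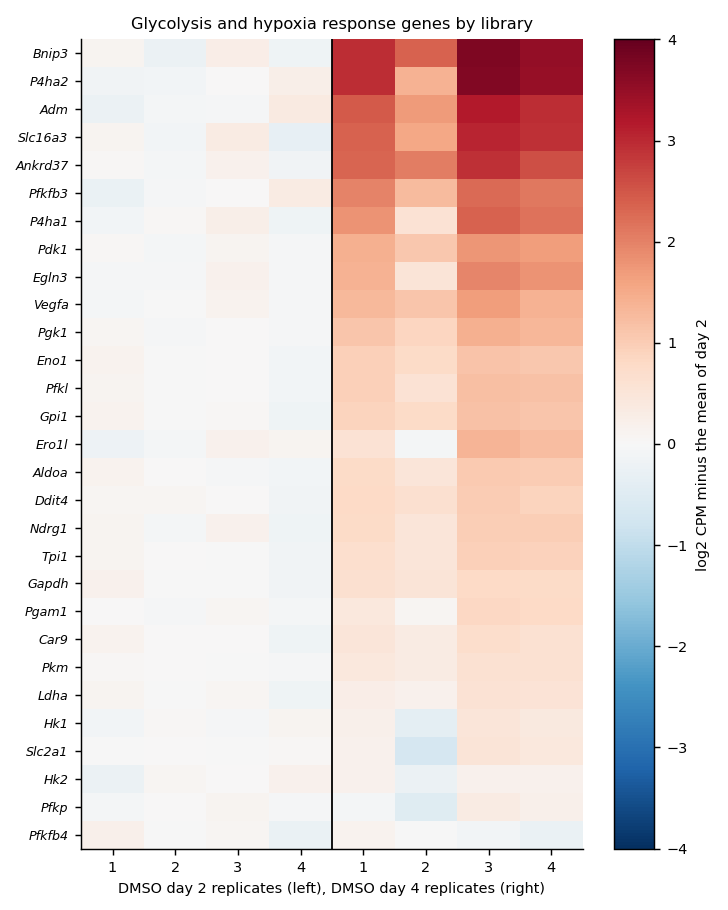
Level of the 29 tested glycolysis and hypoxia genes in each DMSO library (columns, day 2 left and day 4 right), as log2 CPM minus the mean of the day 2 libraries (colour scale). Genes are ordered by the change between days. Day 4 replicate 2 is the palest and replicates 3 and 4 the darkest of the day 4 columns.

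The hypoxia response element, bound by Hif1, holds the letters ACGTG, and 3 promoters of the list are shown for it because the members rose together. Bnip3 and Ankrd37 were picked, and the motif was added, after the values were seen. Each line gives the 250 bases before the RefSeq start on the gene's strand (GRCm38.p6: chr7:138909507-138909756, minus strand, for Bnip3, chr8:45999851-46000100, minus strand, for Ankrd37 and chr7:46845554-46845803, plus strand, for Ldha), 5′ to 3′, with ACGTG on either strand in capitals:
Bnip3: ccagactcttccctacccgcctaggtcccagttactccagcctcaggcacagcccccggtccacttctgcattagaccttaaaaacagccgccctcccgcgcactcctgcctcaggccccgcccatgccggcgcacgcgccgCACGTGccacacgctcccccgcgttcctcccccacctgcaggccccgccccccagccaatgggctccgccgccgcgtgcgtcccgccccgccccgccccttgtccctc
Ankrd37: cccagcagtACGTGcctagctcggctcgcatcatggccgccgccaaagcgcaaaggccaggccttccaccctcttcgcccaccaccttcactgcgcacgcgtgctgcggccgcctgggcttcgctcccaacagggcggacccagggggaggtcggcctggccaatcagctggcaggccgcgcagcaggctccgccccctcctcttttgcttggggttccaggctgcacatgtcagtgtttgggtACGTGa
Ldha: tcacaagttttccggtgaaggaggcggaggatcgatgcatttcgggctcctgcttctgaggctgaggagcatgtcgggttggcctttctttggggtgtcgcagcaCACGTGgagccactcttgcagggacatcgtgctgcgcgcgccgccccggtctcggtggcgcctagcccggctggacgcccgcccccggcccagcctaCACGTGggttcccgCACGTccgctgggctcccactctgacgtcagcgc
In Bnip3 the capitals are the palindrome CACGTG, which counts on both strands and starts 108 bases before the gene. Ankrd37 held matches at 241 and 6 bases and Ldha 5 matches, of which the farthest lay at 145 bases. Over whole promoter sequences, ACGTG was in 19 of the 27 members that had one (70.4%). Its share was 21.8% of all genes in the promoter table and 28.4% of tested genes. Of the other lists searched, clock genes had the highest share (57.1%). CACGTG contains ACGTG, and it was in 3 of the 27 members (11.1%), beside 8.09% of all genes and 11.4% of tested genes.

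Genes of DNA replication mostly rose by small amounts, and those of mitosis were mixed. Of 44 DNA replication genes, 30 rose and 1 fell, but the median was 0.19 and the largest rise 0.50. Pola1, a subunit of DNA polymerase alpha, rose from 39.3 ± 2.98 to 55.5 ± 4.45 CPM (log2 0.50 ± 0.07, edgeR adjusted p = 5.68e-05), Mcm6, of the replicative helicase, from 186 ± 10.2 to 242 ± 8.33 CPM (log2 0.38 ± 0.05) and Mcm2 from 124 ± 8.73 to 153 ± 7.14 CPM (log2 0.30 ± 0.06), while Ccne1, the cyclin of S phase entry, fell from 18.3 ± 0.689 to 12.6 ± 1.48 CPM (log2 -0.54 ± 0.08). The 30 fell to 18 without DMSO day 2 replicate 3 and to 19 without DMSO day 4 replicate 2. Of 40 mitosis genes, 15 rose and 6 fell (median 0.08), and 9 rose without DMSO day 2 replicate 3. Nusap1, a spindle protein, rose from 60.8 ± 2.56 to 79.3 ± 2.70 CPM (log2 0.38 ± 0.05) and Top2a, the topoisomerase of dividing cells, from 334 ± 24.9 to 411 ± 20.8 CPM (log2 0.30 ± 0.06), while Cdc20, an activator of anaphase, fell from 143 ± 9.003 to 120.4 ± 3.70 CPM (log2 -0.25 ± 0.05). Mki67, the proliferation marker, was at 246, 304, 309 and 319 CPM at day 2 and 377, 399, 282 and 286 CPM at day 4. Its ranges overlapped, and it was not called (log2 0.19 ± 0.12, edgeR adjusted p = 0.210). Among 17 G1 cyclins, Cdk inhibitors and pocket proteins, 9 rose and 6 fell. Cdkn1b rose from 57.6 ± 1.66 to 78.1 ± 4.45 CPM (log2 0.44 ± 0.05), while Cdkn2b fell from 88.8 ± 5.89 to 56.7 ± 6.65 CPM (log2 -0.65 ± 0.08) and the cyclin Ccnd2 from 912 ± 91.8 to 592 ± 31.5 CPM (log2 -0.62 ± 0.07, edgeR adjusted p = 1.35e-05). In promoters, TTTGAA, the cell cycle homology sequence, was in 25 of 34 mitosis genes (73.5%) and 4 of 35 DNA replication genes (11.4%). Its share was 20.2% of all genes and 14.6% of tested genes. CCAAT, the NF-Y box, was in 76.5% and 60.0%, beside 41.1% of all genes and 42.9% of tested genes. It was not particular to the cell cycle lists. Its share was 78.6% in clock genes, 75.0% in amino acid response genes, 48.1% in hypoxia genes and 33.3% in Nrf2 targets.

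Of 74 cytosolic ribosomal protein genes, 23 rose and 0 fell (31.1% against 28.7% of all genes, median 0.16). This count rests on single libraries: it was 59 without DMSO day 2 replicate 1, 7 without DMSO day 2 replicate 3, and between 9 and 15 without day 2 replicates 2 and 4 or day 4 replicates 1, 3 and 4. These genes are short (median 1810 exonic bases against 3728 for all tested genes), and day 2 replicate 1 had relatively more reads in short genes. Rpl4 rose from 1953 ± 145 to 2329.7 ± 99.3 CPM (log2 0.25 ± 0.07), and Rpl8 was at 1984 ± 219 to 2026 ± 84.5 CPM (log2 0.03 ± 0.08). Pabpc1, the poly(A)-binding protein, rose from 3183 ± 188 to 4474 ± 202 CPM (log2 0.49 ± 0.07, edgeR adjusted p = 4.61e-05). Eef1a1, the elongation factor, rose from 10105 ± 818 to 12158 ± 666 CPM (log2 0.27 ± 0.08, edgeR adjusted p = 0.0116), a call lost when DMSO day 2 replicate 3 was left out (edgeR adjusted p = 0.0516). Of 32 ribosome biogenesis genes, 10 fell and 0 rose, with Bop1, a factor of the large subunit, from 187 ± 8.91 to 129 ± 5.34 CPM (log2 -0.54 ± 0.05). The nucleolar proteins Ncl and Npm1 differed by -0.01 and 0.01 and were not called.

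Of 40 mitochondrial ribosomal protein genes, 32 fell and 2 rose (80.0% against 24.8%, median -0.27). The 2 that rose were 0 without DMSO day 2 replicate 3, day 2 replicate 4 or day 4 replicate 4, and 1 without day 2 replicate 2 or day 4 replicates 1, 2 or 3. Mrpl20 fell from 59.4 ± 1.598 to 41.2 ± 3.23 CPM (log2 -0.53 ± 0.06, edgeR adjusted p = 1.01e-05), Mrpl46 from 36.5 ± 1.56 to 27.4 ± 0.809 CPM (log2 -0.42 ± 0.05) and Mrpl16 from 71.0 ± 1.53 to 55.6 ± 2.39 CPM (log2 -0.35 ± 0.05). Of 54 nuclear genes of oxidative phosphorylation, 27 fell and 1 rose (median -0.16). The 1 that rose was lost without each library except DMSO day 2 replicate 1 and day 4 replicate 2. Cycs, cytochrome c, fell from 104 ± 2.35 to 68.8 ± 7.69 CPM (log2 -0.59 ± 0.07) and Cyc1, a subunit of complex III, from 488 ± 33.5 to 390.3 ± 15.7 CPM (log2 -0.32 ± 0.06), while Atp5a1 and Sdha, abundant subunits, differed by -0.05 and 0.07 and were not called. Both lists are of short genes (median 2660 and 1918 exonic bases). Genes of 1001 to 2000 exonic bases had a median change of -0.13 (954 genes) and those above 8000 one of 0.07, and the part of gene length in these falls was not tested. Of the 13 genes encoded in mitochondria, 2 fell and 0 rose. The count that fell was 0 without DMSO day 2 replicate 1 and 1 without day 2 replicate 4, day 4 replicate 3 or day 4 replicate 4, and 1 rose without day 4 replicate 4. Among them was mt-Nd1, a subunit of complex I, at 4609, 4335, 4044 and 4168 CPM at day 2 and 3649, 3823, 2911 and 2224 CPM at day 4 (log2 -0.44 ± 0.14, edgeR adjusted p = 0.0204). The call was lost when DMSO day 2 replicate 1 was left out (edgeR adjusted p = 0.0620) or without day 4 replicate 3 (edgeR adjusted p = 0.0535). mt-Co1, a subunit of complex IV, was at 11853, 10944, 10507 and 10214 CPM at day 2 and 13932, 13653, 11182 and 7457 CPM at day 4 (log2 0.09 ± 0.16), with replicate 4 the lowest of day 4 for both genes.

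Lipid synthesis genes rose. Of 11 genes of fatty acid synthesis and desaturation, 8 rose and 2 fell (median 0.36). Scd1, a stearoyl-CoA desaturase, rose from 221 ± 29.4 to 534 ± 90.5 CPM (log2 1.27 ± 0.12), Fads1, a desaturase of polyunsaturated fatty acids, from 172 ± 3.08 to 364 ± 18.5 CPM (log2 1.08 ± 0.05, edgeR adjusted p = 6.16e-09), Acly, which makes cytosolic acetyl-CoA, from 290.1 ± 11.7 to 425 ± 15.5 CPM (log2 0.55 ± 0.05) and Scd2, an abundant desaturase, from 2152 ± 178 to 2971 ± 468 CPM (log2 0.47 ± 0.10). The elongase Elovl6 and the malic enzyme Me1 fell from 234 ± 21.4 to 168 ± 14.4 CPM (log2 -0.48 ± 0.08) and from 114 ± 4.84 to 79.4 ± 8.66 CPM (log2 -0.53 ± 0.07). Of 25 cholesterol synthesis genes, 15 rose and 1 fell (median 0.24), or 2 without DMSO day 2 replicate 4 or day 4 replicate 2. Dhcr7, the last enzyme of the pathway, rose from 132 ± 5.02 to 181 ± 15.8 CPM (log2 0.46 ± 0.06) and Acat2 from 135 ± 4.49 to 177 ± 10.1 CPM (log2 0.39 ± 0.05, edgeR adjusted p = 4.10e-05). Srebf2, the regulator of the pathway, differed by -0.03 and was not called. Of 25 tested genes of fatty acid oxidation and ketogenesis, 7 rose and 8 fell. Acaa1b, a thiolase of peroxisomes that was picked after its value was seen, rose from 41.1 ± 6.99 to 71.1 ± 3.73 CPM (log2 0.79 ± 0.10). Cpt1a, the gate of fatty acid entry into mitochondria, fell from 298 ± 8.11 to 219 ± 14.6 CPM (log2 -0.44 ± 0.05) and Slc25a20, its carnitine carrier, from 62.5 ± 3.58 to 46.0 ± 0.987 CPM (log2 -0.44 ± 0.05).

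Protein folding and amino acid genes were lower in most of their called members. In the unfolded protein response, 9 of 18 fell and 1 rose (0 without DMSO day 2 replicates 2 or 4 or day 4 replicates 3 or 4). Hyou1, a chaperone of the endoplasmic reticulum, fell from 309 ± 12.04 to 226 ± 8.44 CPM (log2 -0.45 ± 0.05), Creld2 from 76.0 ± 2.30 to 52.4 ± 4.64 CPM (log2 -0.54 ± 0.06) and Hspa5, the chaperone BiP, from 821 ± 50.2 to 651 ± 37.1 CPM (log2 -0.34 ± 0.06, edgeR adjusted p = 0.000543), while Xbp1, the pathway's factor, was at 226 ± 13.5 to 220.2 ± 9.74 CPM (log2 -0.04 ± 0.06). Of 21 tRNA synthetases, 15 fell and 0 rose (median -0.26), such as Aars from 237 ± 8.95 to 167 ± 10.4 CPM (log2 -0.50 ± 0.05) and Nars from 391 ± 11.4 to 288 ± 8.93 CPM (log2 -0.44 ± 0.05). Of 23 targets of Atf4, the factor of the amino acid response, 6 rose and 9 fell. Stc2, a secreted glycoprotein, rose from 16.2 ± 1.09 to 59.9 ± 17.7 CPM (log2 1.89 ± 0.20), Vldlr, a lipoprotein receptor, from 15.5 ± 1.40 to 52.7 ± 14.1 CPM (log2 1.76 ± 0.19) and Cbs, which makes cystathionine, from 10.5 ± 1.15 to 29.2 ± 0.782 CPM (log2 1.47 ± 0.07, edgeR adjusted p = 1.12e-08). Psat1, of serine synthesis, fell from 288 ± 15.7 to 197 ± 30.3 CPM (log2 -0.55 ± 0.09), and Asns, asparagine synthetase, was at 155 ± 5.75 to 149 ± 12.04 CPM (log2 -0.06 ± 0.06). The Atf4 letters TGATGNAA were in 6 of 20 members, beside 4.51% of all genes. Of 21 lysosome and autophagy genes, 6 rose and 7 fell: Wipi1, an early autophagy protein, rose from 20.03 ± 0.590 to 37.5 ± 4.02 CPM (log2 0.91 ± 0.07), while Neu1, the sialidase, fell from 89.2 ± 3.55 to 53.4 ± 5.72 CPM (log2 -0.74 ± 0.07).

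**Figure D5:**
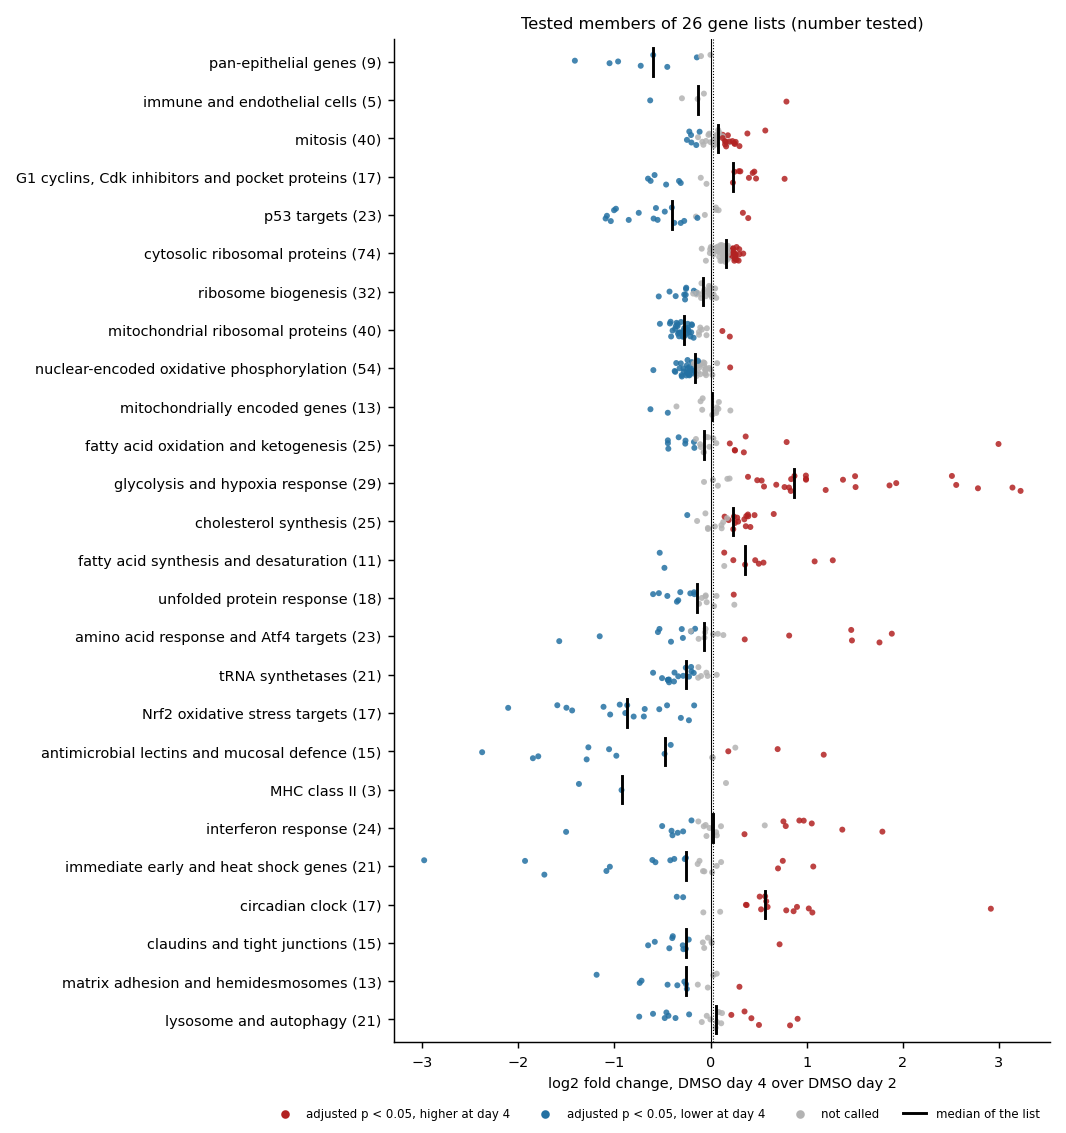
Change from day 2 to day 4 (log2 ratio, horizontal axis) of the tested members of 26 further lists, of cell cycle, protein synthesis, metabolism, stress and junction genes, drawn as in the plot of cell type lists. Points are genes coloured by their call and black bars list medians. Glycolysis and clock genes lie to the right, Nrf2 targets and mitochondrial ribosomal proteins to the left, and cytosolic ribosomal proteins within 0.34 of 0.

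Clock genes rose in 13 of 17 tested cases and fell in 2 (median 0.57), or in 1 without DMSO day 2 replicates 1 or 2 or day 4 replicates 3 or 4. Hlf, a clock output factor, rose from 0.151 ± 0.0830 to 1.14 ± 0.115 CPM (log2 2.92 ± 0.25, edgeR adjusted p = 9.70e-07), the repressors Per3 and Per2 from 20.1 ± 1.21 to 40.9 ± 5.201 CPM (log2 1.02 ± 0.08) and from 33.1 ± 2.30 to 60.2 ± 5.51 CPM (log2 0.86 ± 0.07), Bhlhe40, a repressor that is also induced by low oxygen, from 112 ± 3.57 to 208 ± 28.5 CPM (log2 0.90 ± 0.08) and Tef from 80.8 ± 3.93 to 121 ± 7.21 CPM (log2 0.58 ± 0.06). Arntl, the activator that the Per proteins repress, fell from 21.9 ± 1.68 to 17.2 ± 1.68 CPM (log2 -0.35 ± 0.08), and its partner Clock was at 96.7 ± 18.2 to 91.8 ± 7.26 CPM (log2 -0.07 ± 0.12). The labels give no hour of harvest, so clock phase and day cannot be told apart. The E-box CACGTG was in 4 of 14 clock genes (28.6%), beside 8.09% of all genes and 11.4% of tested genes.

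Among 25 transcription factors of the intestine, 7 rose and 11 fell, and the median was -0.06. Prox1, a homeobox factor of enteroendocrine and progenitor cells, rose from 3.37 ± 0.351 to 8.56 ± 0.994 CPM (log2 1.34 ± 0.11) and Foxa2 from 15.1 ± 0.403 to 24.5 ± 1.12 CPM (log2 0.70 ± 0.06, edgeR adjusted p = 4.71e-07). Cdx1, a relative of Cdx2, fell from 285 ± 23.7 to 214 ± 15.4 CPM (log2 -0.41 ± 0.07), and Elf3 was at 404 ± 36.3 to 400.2 ± 23.0 CPM (log2 -0.01 ± 0.07). The 11 that fell were 7 without DMSO day 4 replicate 3. Further genes among the 15 largest rises belonged to no list that rose. Esrrg, an orphan nuclear receptor, rose from 4.09 ± 0.637 to 16.8 ± 0.557 CPM (log2 2.04 ± 0.10, edgeR adjusted p = 8.47e-09), Bst1, a surface enzyme of Paneth cells and stroma, from 7.002 ± 1.21 to 29.6 ± 5.64 CPM (log2 2.08 ± 0.15), Ppp1r3b, a glycogen-targeting subunit, from 5.07 ± 0.513 to 22.2 ± 5.63 CPM (log2 2.13 ± 0.17) and Rgcc, a cell cycle regulator, from 6.48 ± 0.741 to 25.0 ± 5.37 CPM (log2 1.94 ± 0.14).

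The 4OHT libraries give the only test of whether a day effect differs from that of control organoids. An interaction test over all 16 libraries asked whether the change from day 2 to day 4 was the same with DMSO and with 4OHT. It called 278 of 16597 genes (1.68%), 199 with the more positive change in 4OHT organoids and 79 with the more negative. Of the 8605 genes called in DMSO, 242 passed it. The replicate numbers run across the treatments at day 4: deviations of same-numbered DMSO and 4OHT libraries from the means of their groups correlated at 0.707, 0.81, 0.632 and 0.711 over 9690 genes. At day 2 the same correlations were -0.11, 0.146, -0.049 and 0.475, so the numbers did not pair the libraries of that day. With a replicate block by number within each day, a choice made after the data were seen, the test called 1850 genes (11.1%), 1170 positive and 680 negative. All 278 genes called without the block were among them, with the same direction.

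By list, the genes that passed without and with the block differed in number. Each count is to be read against the share of all tested genes, 1.68% without the block and 11.1% with it. The block was also applied at day 2, where the numbers did not pair the libraries. Of 38 xenobiotic genes, 14 passed without and 25 with it. For 15 mucosal defence genes the counts were 6 and 10, for 25 fatty acid oxidation genes 6 and 14, and for 17 Nrf2 targets 4 and 12, each with a more positive change in 4OHT. Wnt targets had the other direction, with 3 of 14 passing without and 4 with the block, each with a more negative change in 4OHT. In several lists no gene or 1 gene passed without the block and more did with it. Of 44 DNA replication genes, 0 passed without it and 11 with it, all more negative in 4OHT, and of 40 mitosis genes 1 and 12, also more negative. Of 17 fetal-like genes, 0 passed without the block, and 8 positive and 1 negative with it. Of 29 glycolysis and hypoxia genes, 0 passed without the block, and 1 positive and 3 negative with it. For 26 lipid absorption genes the counts were 1 and 17, each more positive in 4OHT. No cytosolic ribosomal protein gene passed in either fit, which does not show that their change was equal.

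Reg3g measured 297 to 81.7 CPM in DMSO and 402 to 391 CPM in 4OHT, a difference between the changes of log2 1.82 ± 0.21. Pear1, a receptor of the EGF repeat family, measured 21.2 to 2.45 CPM in DMSO and 38.2 to 13.6 CPM in 4OHT (log2 1.62 ± 0.18). Capg, Sptssb and Mptx1, a pentraxin of Paneth cells, had differences of log2 1.67 ± 0.38, log2 1.49 ± 0.30 and log2 1.48 ± 0.26. In the other direction, Fgfr4, the receptor for Fgf15, measured 21.2 to 21.1 CPM in DMSO and 22.4 to 10.9 CPM in 4OHT (log2 -1.04 ± 0.13), so that it changed in 4OHT and was not called in DMSO. Timp2, an inhibitor of matrix proteases, measured 6.95 to 15.1 CPM in DMSO and 18.6 to 20.9 CPM in 4OHT (log2 -0.95 ± 0.15). Rgs12, a regulator of G protein signals, Ptpn14, a phosphatase of the Hippo pathway, and Phldb2, a cortical adaptor, had differences of log2 -0.92 ± 0.12, log2 -0.86 ± 0.20 and log2 -0.86 ± 0.18. The count of genes that pass depends on single libraries. Without 1 DMSO library it was 72 to 502 positive and 33 to 225 negative, with the lowest counts without day 2 replicate 2 and the highest without day 2 replicate 4. Without 1 4OHT library it was 66 to 401 and 28 to 150, with the lowest counts without day 2 replicate 3. Leaving out 4OHT day 4 replicate 1 (221 and 79) was the only case that moved neither count by more than 1.5 times.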

How the data were processed

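Poly(A) RNA libraries were made from 250 ng of total RNA with a directional second-strand kit, per the labels' protocols, and bcl2fastq 1.8.4, STAR 2.4.0f1 and build GRCm38 are named in the submitters' processing notes. How reads were counted, with which annotation and on which strand, is not given in the sources used here, so overlapping genes on opposite strands are uncertain. The authors deposited 1 table per day (20790 and 20658 genes, each with at least 10 reads over 8 libraries) with whole-number read counts, a normalized score per library and their own statistics. Only the deposited counts were used. They were joined on the gene ID over the 19964 genes in both tables, which hold 99.998% of the counts. For 14 symbols turned into dates in the day 4 table, the day 2 symbol was taken.

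Counts were scaled by TMM, filtered with filterByExpr (16088 genes left) and tested with edgeR 4.0.16 (robust quasi-likelihood F test) in R 4.3.3 over the 8 DMSO libraries without covariates. The interaction was tested in the same way over 16 libraries (16597 genes). SE is the log2 fold change divided by the root of F. The pipeline was tested on simulated data. Coordinates and exon lengths are those of GENCODE M21 (GRCm38), and promoters those of RefSeq (GRCm38.p6). Promoter windows were found for 35, 34, 20, 14, 27 and 15 tested members of the DNA replication, mitosis, Atf4, clock, hypoxia and Nrf2 lists.

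The groups, the 55 gene lists and the tests were chosen with earlier results of these data known, so no list is independent evidence of its own direction. Some genes, such as Krt20, Fos and Cdkn1a, are on more than 1 list. Genes named are Hnf4a and Wnt3, the 15 largest rises and falls among called genes without overlap between days, with an average of at least 3 in log2 CPM and no predicted name, the 10 largest changes in CPM each way, the 5 largest interactions each way, and from each list its preset anchors, the 3 smallest p-values, the 3 highest levels, the strongest call against the list's main direction and any member of a list of at most 12. Acaa1b was named outside this rule, and some genes that it names are not reported here. Alternatives were DESeq2 1.42.0, other scalings, filters, thresholds and depths, a replicate block, a fit over all libraries and the omission of each library. Common biological coefficients of variation were 0.0809 at day 2 and 0.0796 at day 4. None of 24 pairs of libraries within a group was a copy.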

Additional observations from a re-analysis of the deposited data

Results flagged for a closer look

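Single libraries stood apart from the other 3 of their day in 25 of 546 sets of 4 checked, 4.58% (a gap to the nearest other library above Dixon's 95% critical value for the range), and chance alone gives about 1 in 20. Values are CPM, followed by the range of the other 3 libraries. DMSO day 2 replicate 1 differed in Ccl20 (8.31 against 7.33 to 7.47). DMSO day 2 replicate 3 differed in Ada (9.08 against 9.76 to 9.87), Etv4 (33.9 against 37.8 to 38.2), Gcg (6.08 against 8.19 to 8.54), Lfng (13.97 against 15.5 to 15.6) and Smad7 (8.31 against 8.10 to 8.13). DMSO day 2 replicate 4 differed in Aldh18a1 (346 against 368 to 372), Creld2 (72.6 against 76.8 to 77.4) and Pigr (1922 against 2287 to 2306). DMSO day 4 replicate 1 differed in Mnx1 (8.82 against 9.52 to 9.65). DMSO day 4 replicate 2 differed in Atoh1 (29.4 against 26.7 to 27.2), Cldn2 (349 against 364 to 367), Eef1a1 (11170.0 against 12340.0 to 12560.0), Hk2 (66.8 against 87.6 to 88.7), Hspa8 (1741 against 2096 to 2166) and Wipi1 (43.5 against 35.1 to 35.8). DMSO day 4 replicate 3 differed in Cd36 (16.5 against 15.2 to 15.4), Foxa2 (26.1 against 23.8 to 24.1) and Neurog3 (13.4 against 14.7 to 14.8). DMSO day 4 replicate 4 differed in Anxa10 (19.3 against 8.47 to 9.63), Cdkn1b (71.5 against 79.8 to 81.2), Il18 (12.4 against 8.78 to 9.28), Ly6d (5.23 against 2.20 to 2.54), Msln (49.5 against 20.8 to 24.1) and Ptpn14 (12.6 against 9.80 to 9.91).

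The change from day 2 to day 4 differed between DMSO and 4OHT organoids for 35 named genes by edgeR's interaction test (adjusted p below 0.05), and values are the difference of the log2 changes with the 2 changes it comes from. The change was more positive with 4OHT, by 1 or more log2 units, in Reg3g (1.82, from -1.85 in DMSO to -0.03 in 4OHT), Ccl20 (1.72, from -2.12 in DMSO to -0.40 in 4OHT), Capg (1.67, from -2.94 in DMSO to -1.28 in 4OHT), Pear1 (1.62, from -3.09 in DMSO to -1.48 in 4OHT), Nos2 (1.53, from -1.79 in DMSO to -0.27 in 4OHT), Sptssb (1.49, from -2.88 in DMSO to -1.41 in 4OHT), Mptx1 (1.48, from -0.36 in DMSO to 1.12 in 4OHT), Fgf15 (1.40, from -2.93 in DMSO to -1.54 in 4OHT), Syt8 (1.28, from -2.68 in DMSO to -1.41 in 4OHT) and Reg3b (1.02, from -2.38 in DMSO to -1.36 in 4OHT). Smaller positive differences were found for Akr1b8 (0.99, from -2.11 in DMSO to -1.12 in 4OHT), Acaa1b (0.84, from 0.79 in DMSO to 1.63 in 4OHT), Clca1 (0.84, from -1.93 in DMSO to -1.10 in 4OHT), Zg16 (0.80, from -1.29 in DMSO to -0.49 in 4OHT), Alpi (0.72, from -1.29 in DMSO to -0.58 in 4OHT), Mep1b (0.70, from -1.06 in DMSO to -0.37 in 4OHT), Gsta4 (0.67, from -1.99 in DMSO to -1.32 in 4OHT), Gstm1 (0.64, from -1.83 in DMSO to -1.19 in 4OHT), Cyp3a13 (0.64, from -0.72 in DMSO to -0.08 in 4OHT), Aldh1a1 (0.63, from -0.64 in DMSO to -0.01 in 4OHT) and Apobec1 (0.62, from -1.42 in DMSO to -0.81 in 4OHT). The smallest positive differences were in Pglyrp1 (0.58, from -0.41 in DMSO to 0.16 in 4OHT), Slc25a20 (0.51, from -0.44 in DMSO to 0.06 in 4OHT), Oat (0.49, from 1.12 in DMSO to 1.61 in 4OHT), Cdhr5 (0.47, from -0.50 in DMSO to -0.04 in 4OHT), Zmat3 (0.41, from -1.04 in DMSO to -0.63 in 4OHT), Smoc2 (0.39, from 0.59 in DMSO to 0.97 in 4OHT) and Slc9a3r1 (0.28, from -0.68 in DMSO to -0.40 in 4OHT). The change was more negative with 4OHT in Fgfr4 (-1.04, from 0.01 in DMSO to -1.03 in 4OHT), Timp2 (-0.95, from 1.13 in DMSO to 0.17 in 4OHT), Rgs12 (-0.92, from 1.04 in DMSO to 0.11 in 4OHT), Phldb2 (-0.86, from -0.30 in DMSO to -1.16 in 4OHT), Ptpn14 (-0.86, from -0.12 in DMSO to -0.99 in 4OHT), Ccnd1 (-0.56, from -0.27 in DMSO to -0.84 in 4OHT) and Zfp703 (-0.41, from 0.96 in DMSO to 0.55 in 4OHT). The number of genes called by this test ranged from 66 to 502 and from 28 to 225 when 1 library was left out.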

How the results depend on the processing

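The DMSO day effect was recomputed under 19 alternatives, and no gene called in both an alternative and the reported fit changed direction. The counts of genes that rose and fell stayed within 1.5 times the reported 4616 and 3989 in all but 1: asking for a fold change of at least 1.5 left 2055 and 1093. DESeq2 gave 4338 and 4313, upper quartile scaling 5084 and 3530, library totals alone 5099 and 3498, thinning to the smallest library 4104 and 4186, and an adjusted p below 0.01 3421 and 3033. Without 1 library they were 4053 to 4462 and 3503 to 4127. The replicate numbers did not pair the days: deviations of same-numbered libraries correlated at 0.178, 0.076, 0.075 and 0.057 over 9682 genes, and no library correlated best with its own number. With a replicate block, 4669 rose and 3996 fell. The interaction was less stable than the day effect. Its 199 positive and 79 negative genes became 595 and 241 with DESeq2, 292 and 99 with a filter of at least 1 CPM, 378 and 145 with a replicate block, and 1170 and 680 with a replicate block by number within each day, a choice made after the data were seen. Without 1 library they were 66 to 502 and 28 to 225. The cause of these changes was not tested. Of 2090 values of list counts under an alternative, 1914 stayed within 1.5 times, and of 5183 values of named genes 93 lost and 13 gained a call, 70 of the losses by the 1.5-fold threshold. The smallest library, with 64445056 counts, limits the precision of genes near the filter.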

Other observations

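Genes listed for 1 day only entered no comparison. The day 2 table alone listed 826 genes and the day 4 table alone 694, none with more than 152 reads over the 4 DMSO libraries of its day. Highest among the genes of day 2 were Krt6a and Krt16, keratins known from wounded and stratified epithelium. Krt6a had 11, 24, 10 and 23 reads and Krt16 had 26, 4, 13 and 11 in DMSO day 2 replicates 1 to 4. Among the genes of day 4 was Gif, gastric intrinsic factor, with 25, 15, 16 and 19 reads in DMSO day 4 replicates 1 to 4. The lowest total listed was 10 reads over the 8 libraries of a table. These 3 genes were picked after their values were seen, and no fold change is given for them.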
